A study of Rattus norvegicus with 12 samples.

Results

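The tissue kallikreins of the rat are a family of closely related serine proteases, and 6 of their genes were described in liver and renal cortex: Klk1, Klk1b3, Klk1c4, Klk1c2, Klk1c10 and Klk1c12. All probe sets annotated with these symbols were taken, whether a symbol stood alone or jointly with others. This gave 5 probe sets of 31099 on the array, 1 each for 5 of the 6 genes and 0 with several symbols, beside 14217 genes named by a probe set of their own. No probe set was annotated to Klk1c12, which was not analysed here. The family was selected on measured values of these arrays, its levels in the kidneys of treated rats and in both tissues being known beforehand, so the treatment difference in kidney and the tissue difference are given as descriptions.

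The series measured RNA on 12 arrays, 3 in each of 4 groups. Male rats aged 7 to 9 weeks received trichloroethylene (TCE), an industrial solvent, by mouth at 16 mg/kg per day for 3 days in corn oil at 5 ml/kg, and control rats received the corn oil alone. The strain is given as Wistar-derived in the study's design text and as F-344 in the sample labels. Liver and renal cortex were taken 24 h after the last dose. The groups are kidney of TCE rats, kidney of control rats, liver of TCE rats and liver of control rats. No allele was altered in any of them.

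Tissue kallikrein, the product of Klk1, cuts kininogen and releases kinin peptides, which act on bradykinin receptors to widen vessels and promote salt excretion. In the kidney it is made by cells of the connecting tubule and is secreted into the urine. In rodents the gene has been copied many times, and many of the copies are known for their activity in salivary glands. Klk1c2 encodes tonin, a protease known in the rat for releasing angiotensin II.

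The genes lie together on rat chromosome 1. In the RefSeq annotation of build GRCr8, 31 genes named Klk stood there within 592 kb, 24 of them protein coding and 7 of them pseudogenes, and the 6 members spanned 335 kb. Klk1 (chr1:103779152-103783270) and Klk1b3 (chr1:103845647-103849854) were on the + strand, with starts 66.5 kb apart. The other 4 were on the - strand: Klk1c2 (chr1:103628854-103633000), Klk1c4 (chr1:103571089-103575208), Klk1c10 (chr1:103539527-103543586) and Klk1c12 (chr1:103514639-103518676). The members whose probe sets gave values above the lowest level in TCE kidney were Klk1, Klk1b3 and Klk1c4. No other member stood between Klk1 and Klk1b3. Klk1c2, with its probe set at its lowest value in TCE kidney, stood between Klk1c4 and Klk1.

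**Figure D1:**
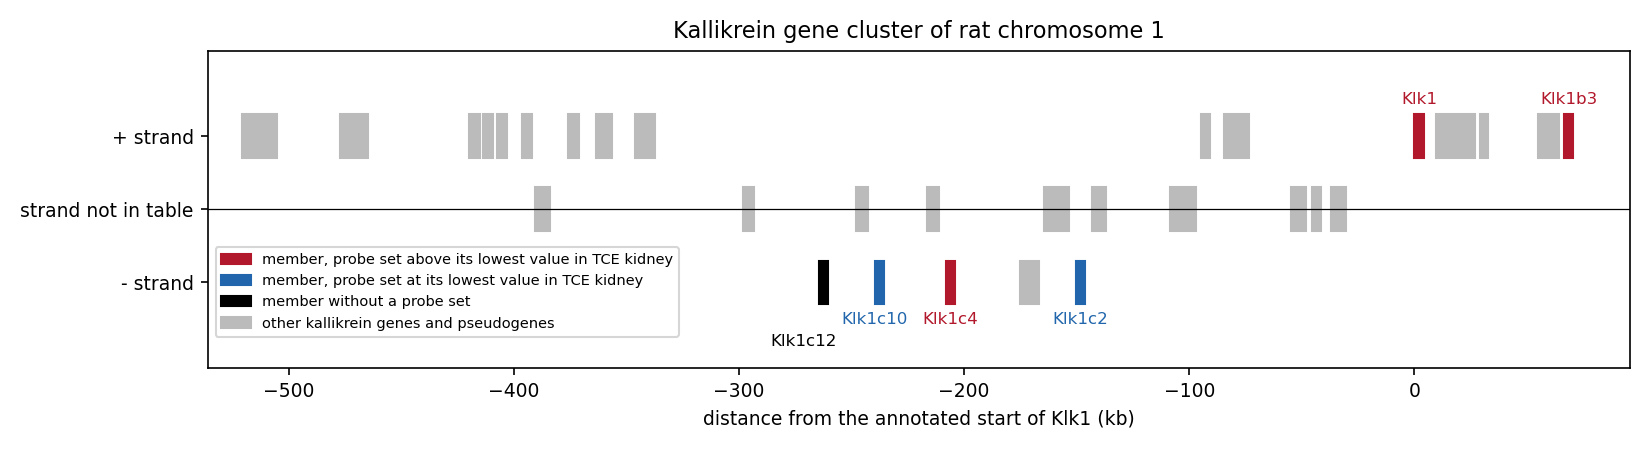
Kallikrein genes of rat chromosome 1 by distance from the annotated start of Klk1 (x axis, kb) and strand (y axis). Boxes are genes drawn to scale, and the middle line holds genes whose strand the promoter entries used here did not give. Red boxes mark members with probe sets above their lowest value in TCE kidney, blue boxes members at their lowest value there, the black box the member without a probe set, and grey boxes other kallikrein genes and pseudogenes.

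The sequence before these genes is shown because members whose probe sets read differently shared it closely. Whether a probe set at its lowest value marks a silent gene or a transcript it does not detect was not tested. Each line gives 116 bases, 5′ to 3′ on the gene's own strand, from RefSeq build GRCr8. The capitals mark TTTAAA, with 100 bases before it and 10 after it. All 6 members matched a RefSeq promoter entry by symbol. Klk1 lies at chr1:103779061-103779176 on the + strand, Klk1b3 at chr1:103845520-103845635 on the + strand, Klk1c4 at chr1:103575262-103575377 on the - strand, Klk1c10 at chr1:103543648-103543763 on the - strand, and Klk1c2 at chr1:103633019-103633134 on the - strand.
Klk1: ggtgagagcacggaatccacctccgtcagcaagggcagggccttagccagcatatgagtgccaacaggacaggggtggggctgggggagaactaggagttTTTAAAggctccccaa
Klk1b3: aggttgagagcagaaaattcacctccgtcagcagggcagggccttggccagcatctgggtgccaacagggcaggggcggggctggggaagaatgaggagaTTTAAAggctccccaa
Klk1c4: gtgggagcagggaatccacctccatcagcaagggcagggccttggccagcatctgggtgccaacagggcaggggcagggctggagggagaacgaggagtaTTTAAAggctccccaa
Klk1c10: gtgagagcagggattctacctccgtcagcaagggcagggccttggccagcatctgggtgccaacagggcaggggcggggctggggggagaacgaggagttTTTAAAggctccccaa
Klk1c2: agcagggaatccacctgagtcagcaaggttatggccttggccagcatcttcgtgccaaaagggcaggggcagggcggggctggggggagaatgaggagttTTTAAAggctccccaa

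The box and the 10 bases after it were the same in these 5 sequences, while the letters just before the box differed. Read with the preceding pair of bases, it was TTTTTAAA in Klk1, Klk1c2, Klk1c10 and Klk1c12, TATTTAAA in Klk1c4 and GATTTAAA in Klk1b3. The box began 27 bases before the annotated start in Klk1b3, 34 in Klk1c2, 69 in Klk1c4 and Klk1c12 and 77 in Klk1c10. In Klk1 it lay after the annotated start. Aligned over 116 bases, the 15 pairs of members shared 76.6% to 94.0% of positions. The 3 pairs among Klk1, Klk1b3 and Klk1c4 shared 85.6% to 88.9%, within the 76.6% to 94.0% of the 9 pairs that joined one of them to one of the other members. The closest pair was Klk1c4 and Klk1c10. In TCE kidney the probe set of Klk1c4 was above its own lowest value and that of Klk1c10 was at its own.

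In windows of 300 bases (250 before to 50 after the start), TTTAAA occurred in 6 of 6 members and in 13.6% of 33469 RefSeq windows, searched on both strands. TATAAA occurred in 0 of 6 members and 14.2% of windows. The E-box CACGTG was in 0 of 6 and 6.42% of windows, the D-box TTATGTAA in 0 of 6 and 0.893%, and the steroid receptor element AGAACA in 0 of 6 and 20.7%. The AP-1 motif TGACTCA was in 1 of 6, Klk1c2, and in 4.63% of windows. These counts describe letters in the windows and no binding was measured.

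The values are log2 expression values. They ran over all arrays between a shared lowest value of 2.17 and 16.5, 27.5% to 29.1% of probe sets were at the lowest value on an array, and 5487 were there on all 12. Array medians were 3.88 to 3.96 in kidney and 3.51 to 3.54 in liver. Arrays of a group correlated at 0.993 to 0.997 over probe sets, and no pair of arrays held identical values. The gap between the 3′ and 5′ probe sets of Gapdh, a sign of RNA quality, was 0.51 to 0.87 in TCE kidney and 0.84 to 1.05 in control kidney, and 1.21 to 1.70 in TCE liver and 0.78 to 0.86 in control liver. Hepatocyte marker genes summed to 2765 to 5015 linear units in TCE kidney and 1558 to 10630 in control kidney. The highest sum was in control replicate 2. The largest part of most of these sums was Cyp2c11, at 10.29 to 11.48 in kidney, so they do not measure liver tissue alone. Alb, albumin, read 10.96, 4.36 and 6.32 in TCE kidney, against 9.89, 12.80 and 7.84 in control kidney. Levels were compared only within a probe set. In whole tissue, fewer cells of a type and less RNA per cell cannot be told apart.

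Klk1, tissue kallikrein itself, was a kidney gene in these rats. Its probe set (1387820_at) read 12.64, 12.46 and 12.23 in TCE kidney, against 11.40, 11.83 and 11.66 in control kidney. In liver it read 2.74, 2.60 and 2.61 in TCE rats, against 2.60, 2.17 and 2.17 in controls. The kidney groups did not overlap, with every TCE kidney above every control kidney, and the liver values stayed close to the lowest value of the array.

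The Klk1 mean was 12.44 ± 0.21 in TCE kidney and 11.63 ± 0.21 in control kidney (SD, n = 3 each). Their log2 difference was 0.81 (SE 0.16), or 1.75-fold. Its liver mean was 2.65 ± 0.08 in TCE rats and 2.31 ± 0.25 in controls (SD, n = 3 each). The liver difference of 0.34 (SE 0.14) did not pass limma's test (Benjamini-Hochberg adjusted p = 0.38), and the liver groups overlapped at 2.60.

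Klk1b3, listed in the same cluster 66.5 kb from Klk1, followed a similar layout. Its probe set (1367961_at) read 13.64, 13.28 and 12.86 in TCE kidney, against 11.86, 12.61 and 12.53 in control kidney. In liver it read 3.30, 2.52 and 2.52 in TCE rats, against 3.22, 3.24 and 2.52 in controls. The kidney groups again did not overlap, and the liver groups did, with 3 of the 6 liver arrays at 2.52, the lowest value this probe set took.

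The Klk1b3 mean was 13.26 ± 0.39 in TCE kidney and 12.33 ± 0.41 in control kidney (SD, n = 3 each). Their log2 difference was 0.93 (SE 0.29), or 1.90-fold. In liver it was 2.78 ± 0.46 in TCE rats and 2.99 ± 0.41 in controls (SD, n = 3 each), and the difference of -0.21 (SE 0.31) did not pass limma's test (adjusted p = 0.787). The 6 kidney arrays stood in the same order for Klk1b3 as for Klk1: TCE replicates 1, 2 and 3 from the highest down, then control replicates 2, 3 and 1. Control kidney replicate 1 was the lowest kidney array for both, and leaving it out took the difference to 0.70 for Klk1 and 0.69 for Klk1b3.

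For Klk1c4 the control kidneys were near the bottom of the scale. Its probe set (1371080_at) read 6.61, 7.38 and 5.25 in TCE kidney, against 2.69, 2.34 and 3.25 in control kidney. In liver it read 2.29 on all 3 TCE arrays, against 2.89, 2.30 and 2.30 in controls. The TCE kidneys were the only group clear of the low end, and they spread more widely than the control kidneys. Their order, replicate 2 above 1 above 3, was not that of Klk1 and Klk1b3.

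The Klk1c4 mean was 6.41 ± 1.08 in TCE kidney and 2.76 ± 0.46 in control kidney (SD, n = 3 each). Their log2 difference was 3.65 (SE 0.59). That is 12.6-fold on the deposited values, a size that rests on control values close to 2.29, the lowest this probe set took. By difference it stood 1 of 18609 probe sets tested in kidney, counted from the highest, while Klk1b3 stood 113 and Klk1 174. In liver Klk1c4 fell under the filter on low values and was not tested; its mean was 2.29 in TCE rats and 2.50 ± 0.34 in controls (SD, n = 3).

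The remaining 2 members gave almost no signal in either tissue. Klk1c2 (tonin, 1368628_at) was at the array's lowest value, 2.17, on 11 of 12 arrays and rounded to 2.17 on the other, control kidney replicate 3. Klk1c10 (1384978_at) was at 2.17 on 11 arrays and read 2.56 in control liver replicate 3. Neither was tested. No probe sequences were used here, so how far a probe set answers to the transcript of a neighbouring copy was not tested.

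**Figure D2:**
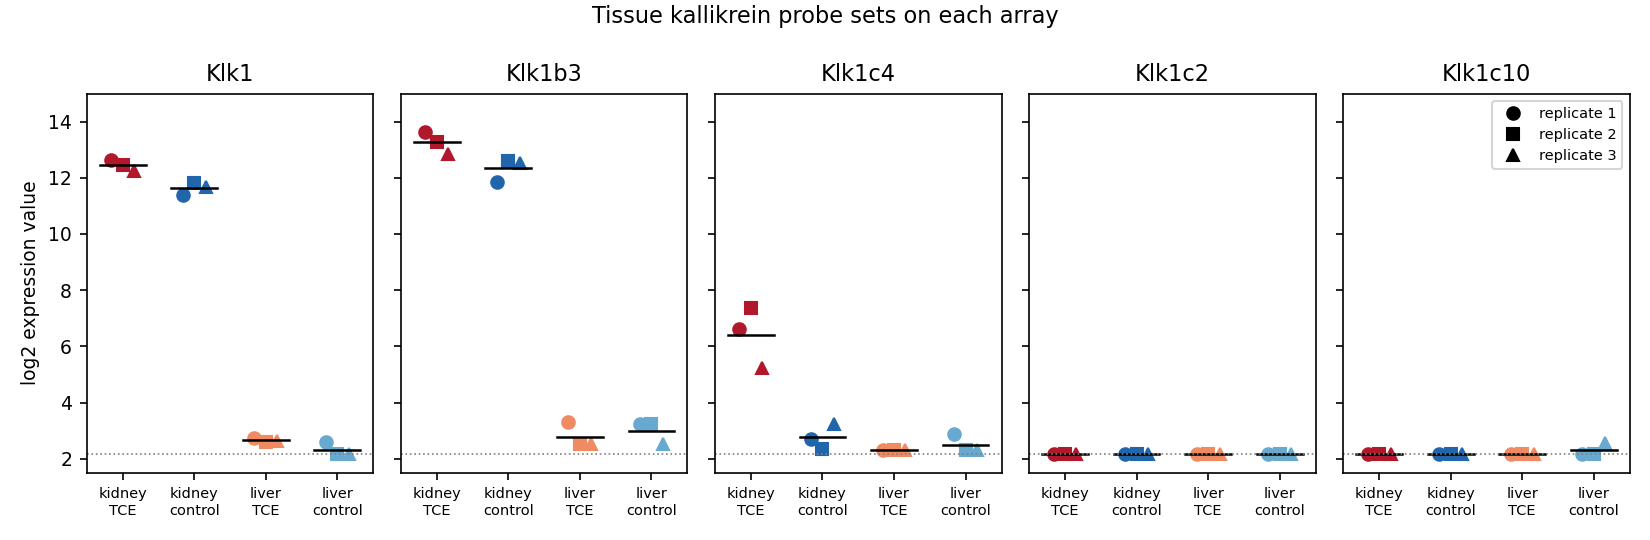
Log2 expression value (y axis) of the 5 kallikrein probe sets in kidney of TCE rats, kidney of control rats, liver of TCE rats and liver of control rats (x axis). Symbols are single arrays, black bars are means of 3 arrays and the dotted line is the array's lowest value, 2.17. Klk1 and Klk1b3 are near 12 to 13 in kidney and near the bottom in liver, and Klk1c4 leaves the bottom in the 3 TCE kidneys, where it reads 5.25 to 7.38.

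Of the 5 member probe sets, 3 passed the filter on low values in kidney, and Klk1c4 passed it through the TCE group, where it was high. At an adjusted p under 0.05 limma called 0 of the 3, and it called 0% of the 18609 probe sets tested. At an unadjusted p under 0.05 the count was 3 of 3, and 14.5% of all probe sets. TCE values lay above all control values in 3 of 3, and in 10.7% of all. The smallest adjusted p of any probe set in kidney was 0.0978, and the median log2 difference over all was 0.0023. These kidney values chose the family, so the counts are no support for it.

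In liver 2 of the 5 were tested. Limma called 0 of 2 and 0% of 18610 probe sets at an adjusted p under 0.05. At an unadjusted p under 0.05 the count was 0 of 2, and 13.8% of all.

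The kidney difference minus the liver difference was also fitted over all 12 arrays. It was 3.86 (SE 0.63) for Klk1c4, with an adjusted p of 0.0272 in limma. It was 1.14 (SE 0.44, adjusted p = 0.223) for Klk1b3 and 0.47 (SE 0.22, adjusted p = 0.299) for Klk1. This made 1 of 3 members called, while 1.06% of 18609 probe sets were called. At an unadjusted p under 0.05 the count was 2 of 3, and 17.7% of all. Since the kidney side of this difference was among the values that chose the family, the p of Klk1c4 is not independent of the choice. The call did not hold throughout: without TCE kidney replicate 1 the adjusted p was 0.073, and without control kidney replicate 1 it was 0.0735.

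Between tissues, the control rats gave a kidney minus liver log2 difference of 9.34 for Klk1b3 and 9.32 for Klk1. These stood 60 and 61 of 31042 probe sets, counted from the highest. The TCE rats gave 10.48 for Klk1b3 and 9.79 for Klk1. For Klk1c4 the difference was 4.12 in TCE rats and 0.26 in control rats, whose groups overlapped. Control kidney lay above control liver on all arrays for 2 of 5 members, and for 25.1% of the 31042 probe sets. The liver values near the bottom of the scale keep these differences from being exact.

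The genes closest to Klk1 in pattern over the 12 arrays were other kidney genes. Likeness was the root mean square difference of log2 values after each probe set's own mean was removed, over 14217 genes. It was 0.25 for Tinag, a tubular basement membrane antigen, 0.277 for Naglt1, 0.293 for Slc1a1, a glutamate transporter, 0.331 for Krt7, a keratin, and 0.361 for Tmem213. Klk1b3 came next, at rank 6 with 0.363. The likeness was mainly one of tissue: kidney minus liver in controls was 9.52 to 9.82 for these 5 genes, while their TCE minus control differences in kidney were -0.0032 to 0.517, against 0.81 for Klk1.

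Other kallikreins of the array were mostly at the low end. Klk1c9 (1370289_x_at) read 3.63, 2.63 and 3.61 in TCE kidney, against 2.36, 2.37 and 2.77 in control kidney. The groups overlapped, and the difference of 0.79 (SE 0.31) did not pass limma's test (adjusted p = 0.344). Klk1c8 read 2.40, 2.17 and 2.25 in TCE kidney and 2.17 in every control kidney. Klk1c3 went the other way, at 2.20, 2.17 and 2.17 in TCE kidney, against 2.17, 2.28 and 2.18 in control kidney, a difference of -0.03. Both were near the lowest value and neither was tested. Klk6 and Klk8 were at the lowest value on all 12 arrays and Klk10 on 11.

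Klkb1 encodes plasma kallikrein, a liver protease that also releases kinin but is not of this gene family. It read 13.21, 13.05 and 13.05 in TCE liver, against 12.75, 12.80 and 12.77 in control liver. The groups did not overlap, and the difference of 0.33 (SE 0.07) did not pass limma's test (adjusted p = 0.193). It is named in the kinin system list as well. In kidney it read 6.09, 6.08 and 5.43 in TCE rats, against 6.71, 6.07 and 6.21 in controls, with overlap and a difference of -0.46 (SE 0.26, adjusted p = 0.462).

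The rest of the kinin system, the genes that supply, bind and break down kinins, mostly lay slightly lower in TCE kidney, with no call. Of 29 listed genes 24 were on the array and 17 were tested. Of these 3 were higher and 14 lower in TCE kidney, with a median log2 difference of -0.19, beside 0.0023 over all probe sets. Limma called 0 of 17, and 0 at an unadjusted p under 0.05, where 14.5% of all probe sets passed. Several listed genes are liver products, and control kidney replicate 2 held the most hepatocyte marker RNA. Without that array 13 of 17 were lower and the median was -0.085.

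Among the substrates, Kng2l1, a kininogen gene, was near the low end in kidney. It read 2.50, 2.51 and 2.50 in TCE kidney, against 3.12, 3.18 and 2.50 in control kidney, and 12.65 to 13.02 in liver. The kidney difference was -0.43 (SE 0.19, limma adjusted p = 0.391). The other probe sets of Kng2l1 gave 0.04 and 0.25 in kidney, the opposite sign. Kng1 and Kng2 had no probe set with their symbol alone and were not analysed here. The bradykinin receptors were at the low end throughout: Bdkrb1 read 2.17 on all 12 arrays and Bdkrb2 2.17 to 2.20.

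Among the enzymes that break kinins down, Mme, neprilysin, read 12.40, 12.54 and 11.97 in TCE kidney, against 12.33, 12.10 and 12.36 in control kidney. The groups overlapped, and the difference was 0.04 (SE 0.17, limma adjusted p = 0.934). Ace, which also makes angiotensin II, gave -0.32 (SE 0.31, adjusted p = 0.656), and its other probe set gave -0.58. Xpnpep1, an aminopeptidase, gave -0.19 (SE 0.12, adjusted p = 0.496), and Cpn1, a subunit of carboxypeptidase N, gave -0.19 (SE 0.13, adjusted p = 0.521).

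Downstream and regulatory genes also missed the threshold. Nos3, endothelial nitric oxide synthase, read 4.13, 3.93 and 4.21 in TCE kidney, against 4.25, 4.22 and 4.63 in control kidney, a difference of -0.27 (SE 0.14, limma adjusted p = 0.442). Serping1, the inhibitor of plasma kallikrein and complement C1, gave -0.32 (SE 0.17, adjusted p = 0.437).

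In liver 19 kinin system genes were tested, 7 higher and 12 lower in TCE rats, with a median of -0.046 beside 0.0203 over all probe sets. Limma called 0 of 19, and 4 passed an unadjusted p under 0.05, where 13.8% of all did. Serpina4, kallistatin, an inhibitor of tissue kallikrein, read 13.20, 13.33 and 13.34 in TCE liver, against 13.55, 13.79 and 13.52 in control liver. The groups did not overlap, and the difference was -0.33 (SE 0.10, limma adjusted p = 0.274).

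Serpina3m, of the same inhibitor class, read 13.07, 12.94 and 13.10 in TCE liver, against 13.49, 13.48 and 13.50 in control liver. These did not overlap either, with a difference of -0.46 (SE 0.07, limma adjusted p = 0.117). Ptges2, a prostaglandin E synthase, gave -0.27 (SE 0.06, adjusted p = 0.204), Serping1 -0.15 (adjusted p = 0.388) and Ece1, endothelin-converting enzyme, -0.28 (adjusted p = 0.436). Ace gave -0.06 (adjusted p = 0.952) and Mme 0.29 (adjusted p = 0.893). The Gapdh gap given above did not overlap between the liver groups. Erythroid markers summed to 10930 to 16450 in TCE liver and 19960 to 25610 in control liver, and neutrophil and mast cell markers to 293.5 to 359.2 in TCE liver and 132.9 to 201.3 in control liver. Their part in the liver values was not tested.

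**Figure D3:**
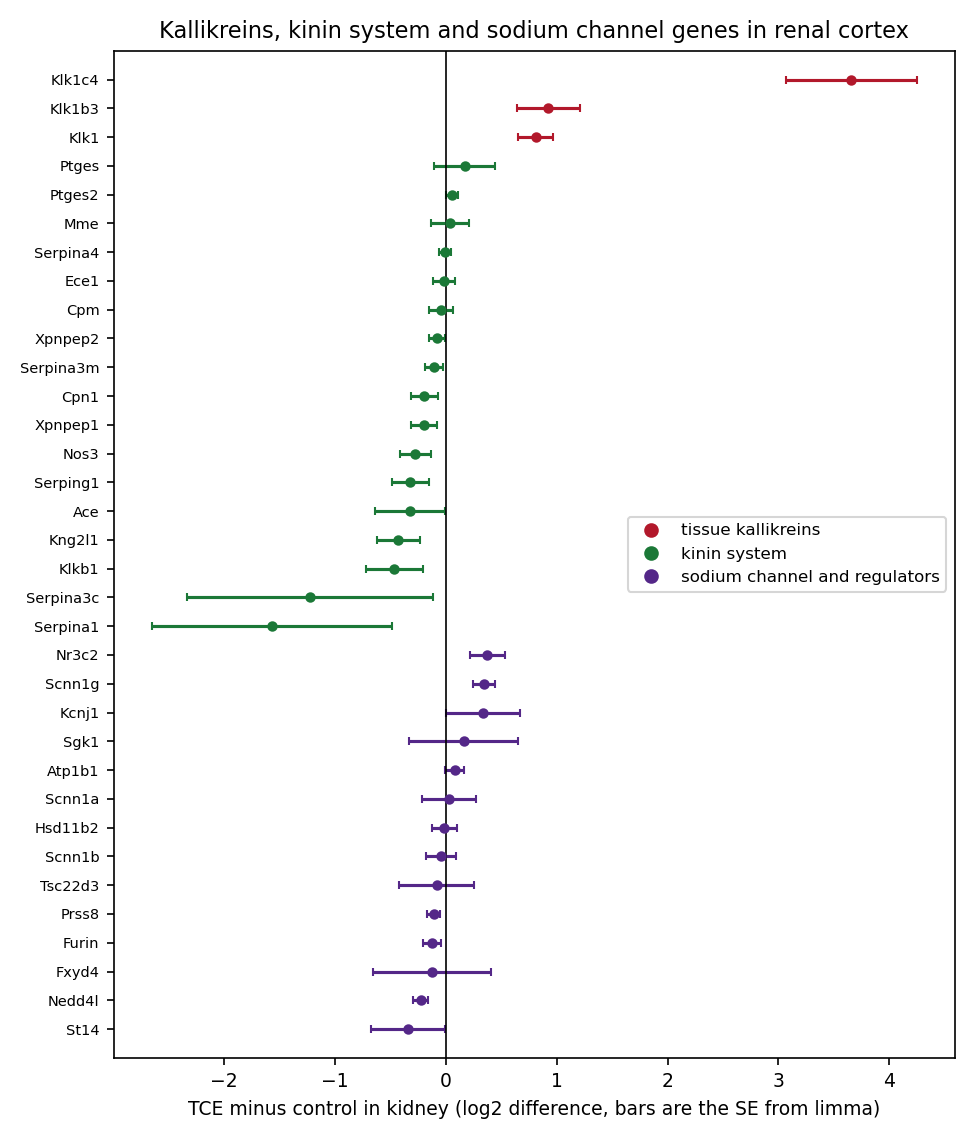
TCE minus control log2 difference in kidney (x axis) for the tested tissue kallikreins (red), kinin system genes (green) and genes of the epithelial sodium channel and its regulators (purple), one gene a row. Points are differences of the means of 3 TCE and 3 control kidneys and bars are limma's SE. The 3 kallikreins lie at 0.81 to 3.65, and 14 of the 17 kinin system genes lie below 0.

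The epithelial sodium channel stands beside kallikrein in the connecting tubule, and its gamma subunit is known as a kallikrein substrate. Of 14 tested genes of the channel and its regulators, 6 were higher and 8 lower in TCE kidney, with a median of -0.03. Limma called 0 of 14, and 2 passed an unadjusted p under 0.05, where 14.5% of all probe sets did, so this count was near the background. Scnn1g, the gamma subunit, read 8.77, 8.53 and 8.69 in TCE kidney, against 8.17, 8.44 and 8.33 in control kidney. The groups did not overlap, and the difference was 0.35 (SE 0.10, adjusted p = 0.262).

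Nedd4l, the ligase that removes the channel from the membrane, read 9.46, 9.53 and 9.46 in TCE kidney, against 9.75, 9.59 and 9.79 in control kidney. Its groups did not overlap, and the difference was -0.23 (SE 0.07, limma adjusted p = 0.274). Nr3c2, the mineralocorticoid receptor, read 8.71, 8.51 and 8.41 in TCE kidney, against 8.33, 7.86 and 8.32 in control kidney, a difference of 0.37 (SE 0.16, adjusted p = 0.367). Prss8, prostasin, another protease of the channel, gave -0.11 (SE 0.06, adjusted p = 0.455). Furin, which also cuts the channel, gave -0.12 (SE 0.08, adjusted p = 0.536), and St14, matriptase, gave -0.34 (SE 0.33, adjusted p = 0.66).

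In liver 13 of the sodium channel genes were tested, limma called 0, and 0 passed an unadjusted p under 0.05, where 13.8% of all did. Hsd11b2, which inactivates corticosterone, read 5.84, 4.96 and 3.17 in TCE liver, against 6.20, 5.82 and 5.78 in control liver. The groups overlapped, and the difference was -1.27 (SE 0.69, limma adjusted p = 0.467). Atp1b1, a sodium pump subunit, gave -0.37 (SE 0.28, adjusted p = 0.603), and its other probe set gave 0.73, the opposite sign. Nedd4l gave -0.29, Scnn1b 0.14, Fxyd4 -0.12 and Furin -0.04, with limma adjusted p from 0.574 to 0.782.

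The marker list that includes the nephron segment making kallikrein overlapped between groups in sum. For the connecting tubule and distal nephron 12 genes were tested, 8 higher and 4 lower in TCE kidney, with a median of 0.08 and 0 called by limma. At an unadjusted p under 0.05 the count was 1 of 12, where 14.5% of all probe sets passed. The summed linear level of the list was 31510 to 42380 in TCE kidney and 35260 to 39640 in control kidney, with overlap. The list holds Wnk1, at 13.03 to 13.59 in kidney and 10.56 to 10.98 in liver, so the sum is not one of connecting tubule cells alone. Calb1, calbindin of the connecting tubule, read 13.48, 13.41 and 12.75 in TCE kidney, against 13.22, 13.42 and 13.35 in control kidney, a difference of -0.11 (SE 0.21). Calb1 was named as a defining marker after its values were seen.

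Kl, klotho, was the listed gene with the highest difference. It read 8.09, 7.66 and 7.71 in TCE kidney, against 6.68, 7.48 and 7.14 in control kidney. The groups did not overlap, and the difference was 0.72 (SE 0.24, limma adjusted p = 0.292). S100g, a calcium-binding protein, gave 0.35 (SE 0.16, adjusted p = 0.396). Bsnd, barttin, a chloride channel subunit, gave 0.22 (SE 0.11, adjusted p = 0.426), and Tfap2b, a transcription factor, gave -0.10 (SE 0.09, adjusted p = 0.633).

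Marker lists of other cell types of the cortex were set beside these. The summed principal cell list overlapped between groups, at 13030 to 18500 in TCE kidney and 13550 to 17890 in control kidney, and its 9 tested genes had a median of -0.01, with 1 of 9 at an unadjusted p under 0.05, against 14.5% of all probe sets. That gene was Scnn1g, given above. Gata3, a transcription factor, gave 0.33 (SE 0.18, limma adjusted p = 0.448), Aqp4, a water channel, gave 0.61 (SE 0.68, adjusted p = 0.694) and Avpr2, the vasopressin receptor, gave -0.13 (SE 0.15, adjusted p = 0.71). The intercalated cell list did not overlap, at 10100 to 11220 in TCE kidney and 9395 to 9725 in control kidney. The largest part of each sum was Atp6v1g3, at 12.51 to 12.72 in TCE kidney and 12.40 to 12.49 in control kidney. Of its 7 tested genes 6 were higher, with a median of 0.20, and 1 of 7 passed an unadjusted p under 0.05, against 14.5% of all. Foxi1, an intercalated cell transcription factor, gave 0.34 (SE 0.09, limma adjusted p = 0.241), and Atp6v1g3, a proton pump subunit, gave 0.19 (SE 0.08, adjusted p = 0.345). Slc4a1, an anion exchanger also present in red cells, gave 0.32 (SE 0.17, limma adjusted p = 0.445), and Rhcg, an ammonia channel, gave -0.14 (SE 0.08, adjusted p = 0.471).

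The podocyte list did not overlap either, at 3361 to 4046 in TCE kidney and 2847 to 3215 in control kidney. Its 6 tested genes were 5 higher and 1 lower, with a median of 0.58, and 4 of 6 passed an unadjusted p under 0.05, against 14.5% of all. Nphs1, nephrin, gave 0.87 (SE 0.16, limma adjusted p = 0.185) and Ptpro 0.69 (SE 0.11, adjusted p = 0.178). Podxl, podocalyxin, gave 0.65 (SE 0.15, limma adjusted p = 0.227) and Wt1, a transcription factor, 0.52 (SE 0.16, adjusted p = 0.271). Further probe sets of Podxl and Wt1, all near the lowest value, gave -0.07 to 0.

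Both remaining lists had medians closer to 0. The thick ascending limb list had a median of 0.10 over 7 tested genes, and 0 of these passed an unadjusted p under 0.05. Umod, uromodulin, gave 0.10 (limma adjusted p = 0.527) and Cldn16, a claudin, 0.29 (adjusted p = 0.604). Egf gave 0.11 (adjusted p = 0.622) and Slc12a1, the salt cotransporter of this segment, 0.15 (adjusted p = 0.825). The proximal tubule list had a median of 0.13 over 13 tested genes, 2 of them at an unadjusted p under 0.05, where 14.5% of all passed. Slc17a1, a phosphate and urate transporter, gave 0.45 (SE 0.13, limma adjusted p = 0.251) and Cubn, cubilin, 0.16 (SE 0.06, adjusted p = 0.328). Lrp2, megalin, gave 0.13 (SE 0.09, adjusted p = 0.513) and Slc5a2, a glucose transporter, 0.73 (SE 0.54, adjusted p = 0.564). For TCE minus control in kidney limma called 0 genes of these 6 lists. For the kidney effect minus the liver effect, where Klk1c4 was called, it called 1 gene each in 3 of them, while 1.06% of all probe sets were called. These were Slc4a1 with 1.38 (SE 0.24, limma adjusted p = 0.0308), Slc17a1 with 0.98 (SE 0.17, adjusted p = 0.0305) and Ptpro with 0.95 (SE 0.18, adjusted p = 0.0401). In liver, TCE minus control was -1.06 for Slc4a1, -0.53 for Slc17a1 and -0.26 for Ptpro. In kidney it was 0.32, 0.45 and 0.69 in the same order. For Slc4a1 and Slc17a1 the lower level in TCE liver was thus the larger part. Slc4a1 is also present in red cells, and erythroid marker sums were lower in TCE liver, as given above. The part of red cells in its values was not tested. The part of the marker list shifts in the kallikrein values was not tested.

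Glands that make much kallikrein were looked for as well. The 8 submandibular gland genes on the array summed to 35.96 on every kidney array, with 0 of 8 above the filter. Of 17 pancreatic acinar genes 2 were tested in kidney, 0 called by limma and 0 at an unadjusted p under 0.05. Their list summed to 2905 to 3563 in TCE kidney and 3435 to 3610 in control kidney. Nearly all of that sum was Cela1, which read 11.47 to 11.79 in kidney and 9.90 to 10.89 in liver. Each other listed gene read 3.17 or less on every kidney array. The 8 hepatocyte genes tested in kidney were 1 higher and 7 lower, with a median of -1.44, and their sums overlapped as given above. The higher gene was Cyp2c11, the largest part of most of these sums. Without control kidney replicate 2 the kidney difference was 0.91 for Klk1, 1.06 for Klk1b3 and 3.44 for Klk1c4.

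**Figure D4:**
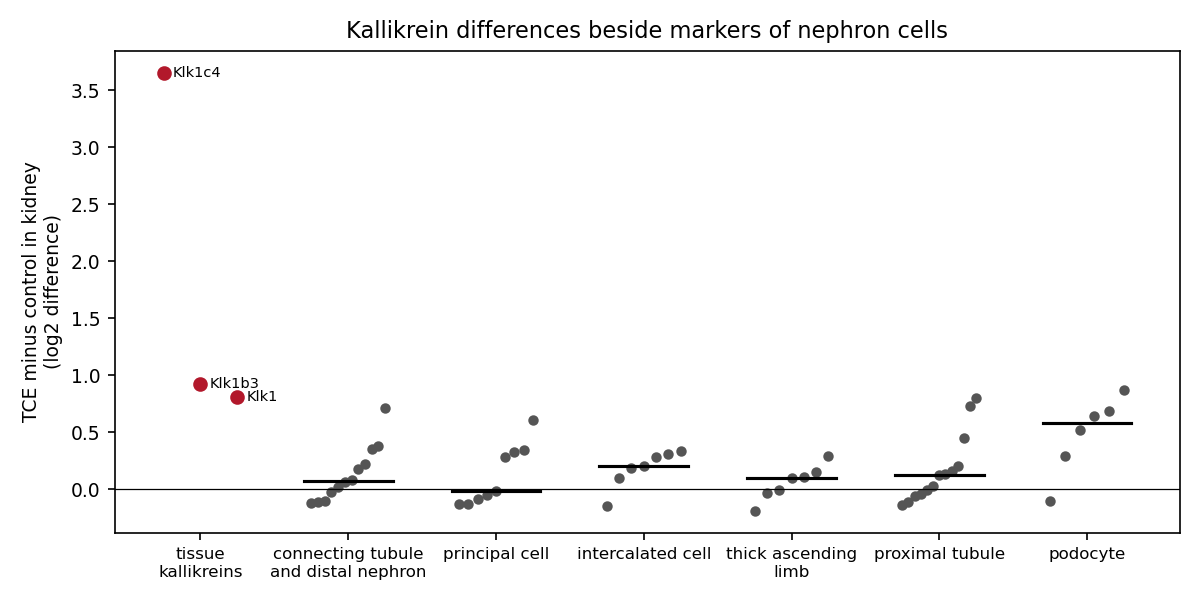
TCE minus control log2 difference in kidney (y axis) of the 3 tested tissue kallikreins (red) beside tested marker genes of cell types of the kidney (x axis). Grey points are genes and black bars are list medians. The medians lie at -0.01 to 0.20 for tubule cell types and at 0.58 for podocytes, and the kallikreins at 0.81 to 3.65.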

How the data were processed

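The authors deposited 1 table of log2 values, 31099 probe sets by 12 arrays; the scale was read from the range of values. Per the submitters' processing notes, affy and limma made them. Versions, normalization and summary step: not given in the sources used here. Groups came from the sample titles. Gene symbols came from the platform annotation held by GEO (1 symbol for 20826 probe sets, several for 436, none for 9780). The 57 array controls were not tested. Kallikreins were tested per probe set, listed genes by their brightest singly named probe set. Tests used limma 3.58.1 in R 4.3.3 on probe sets above the 40th percentile of mean value (2.43 in kidney, 2.45 in liver, 2.55 over both), two-sided, adjusted by Benjamini-Hochberg over all tested, threshold 0.05. The 3 arrays per group limit the precision. The fits were tested on simulated data. Named genes were all members, the 6 genes of smallest p in the kinin and sodium lists in each tissue and the 4 of each nephron list in kidney, named receptors and enzymes whatever their values, and the 5 genes most like Klk1. The members and lists were chosen with earlier results of these data known. Promoter windows came from RefSeq GRCr8 and were aligned with Biopython 1.88. Alternatives varied the filter, the normalization, the variance model, the probe set choice, the arrays and a replicate block.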

Additional observations from a re-analysis of the deposited data

Results flagged for a closer look

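For Klk1c4, the effect of TCE in kidney minus its effect in liver was 3.86 on the log2 scale (SE 0.63, limma adjusted p = 0.0272), which passed the threshold for a difference between the 2 tissues. The call was lost in 9 of 19 alternatives, among them no filter (adjusted p = 0.0641), the replicate block (0.064) and leaving out any of 7 single arrays (0.0506 to 0.0735). All 3 TCE kidneys (5.25 to 7.38) lay above all 3 control kidneys (2.34 to 3.25), while TCE livers (2.29) and control livers (2.30 to 2.89) were near the bottom of the scale. The probe set passed the filter on low values only through the TCE kidneys. The kidney values were known when the family was chosen, so this p is not independent evidence. The explanation was not tested.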

How the results depend on the processing

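Of 59 named differences, 54 kept their sign in every alternative run. The others left out 1 array each: Mme in kidney ran from -0.0772 to 0.208, Avpr2 in kidney from -0.229 to 0.0134, Slc12a1 in kidney from -0.0166 to 0.44, Ace in liver from -0.265 to 0.173 and Mme in liver from -0.148 to 1.00. With all 12 arrays in the fit, limma's adjusted p was 0.0275 for Klk1c4 in kidney and 0.0263 for Serpina3m in liver, against 0.178 and 0.117 as reported. The share of all probe sets called in that fit is not given here. The kidney values of Klk1c4 were among those that chose the family. With arrays centred on their medians, control kidney and control liver did not overlap for 4 members instead of 2: in 2 kidney lay above liver, as before, and in 2 at the lowest value, Klk1c2 and Klk1c10, it lay below, the arrays' medians being lower in liver. Centring does the same to each of the 5487 probe sets at the lowest value on all 12 arrays, so this count tells nothing about the members. The share over all probe sets with this centring is not given here. For kidney effect minus liver effect, the kallikreins called were 0 instead of 1 with no filter (Klk1c4 adjusted p = 0.0641), with a filter at the 60th percentile, where Klk1c4 was not tested, and with the replicate block (3.86, adjusted p = 0.064). Leaving out 1 array gave 0 to 1 calls and, for Klk1c4, 3.37 to 4.44 with adjusted p from 0.0133 to 0.0735. The call was lost without TCE kidney replicate 1 (0.073), TCE liver replicates 1 (0.0652) or 2 (0.0623), control kidney replicates 1 (0.0735) or 2 (0.051), and control liver replicates 2 (0.0506) or 3 (0.0561). In kidney, leaving out 1 array gave 3.17 to 4.24 for Klk1c4, 0.698 to 0.918 for Klk1 and 0.69 to 1.13 for Klk1b3, and the count of kallikreins called was 0 each time. With group means removed, TCE and control arrays of equal replicate number correlated at -0.0735, -0.0141 and -0.0305 in kidney and 0.0298, -0.0389 and -0.0523 in liver. Those of unequal number correlated at -0.115 to 0.164 in kidney and -0.0779 to 0.111 in liver. Values centred within groups of 3 cannot settle whether the numbers pair the arrays. The block changed no other call. The median of the kinin system without control kidney replicate 2, -0.0848 against -0.191, was chosen after seeing the data. The causes were not tested. Low values limit Klk1c4 in controls and all members in liver. Whether equal numbers in liver and kidney mark 1 rat is not stated in the labels, and the fit over both tissues treats arrays as independent.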
